A study of Homo sapiens with 6 samples.

Results

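The 38 genes described here encode the enzymes that attach amino acids to transfer RNAs, and the scaffold proteins that hold some of these enzymes together. They were found by name among the 26410 gene rows of a count table, all under their older symbols (AARS for AARS1, and so on), and comprise 20 cytosolic enzymes or enzyme subunits, 16 mitochondrial enzymes and the scaffolds AIMP1 and AIMP2. The table comes from bulk RNA-seq of Kasumi-1, a human acute myeloid leukaemia line with the RUNX1::RUNX1T1 fusion. The shPHF19 group held 3 libraries of cells given a lentiviral short hairpin RNA against PHF19, a Polycomb-like accessory protein of Polycomb repressive complex 2. The control group held 3 libraries, which the protocol describes as cells given a scrambled hairpin while their treatment field reads WT. All cells of both groups came from the 1 line and underwent puromycin selection at 2 µg/ml, begun 48 h after the hairpin and kept up for at least 24 h. The number of different PHF19 hairpins is not stated in the labels. Neither is it stated that the 3 replicates were separate cultures, so the tests speak only of scatter among these 6 libraries, and that scatter may be technical.

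Each cell carries these enzymes in duplicate sets. The cytosolic set charges the transfer RNAs used by ribosomes of the cytosol, and the mitochondrial set, also encoded in the nucleus and recognised by the suffix 2, charges those that the mitochondrial genome encodes. GARS and KARS serve both compartments from a single gene. EPRS joins a glutamyl and a prolyl enzyme in a single chain, and FARSA and FARSB are the subunits of the cytosolic phenylalanyl enzyme. No mitochondrial glutaminyl enzyme exists: EARS2 first loads glutamate, which an amidotransferase then converts to glutamine. Many cytosolic genes are known targets of ATF4, the transcription factor of the integrated stress response that a shortage of amino acids activates through uncharged transfer RNA and the kinase GCN2 (EIF2AK4).

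Library totals were 14229878 to 16615143 counts. Levels are given as CPM (counts relative to the scaled total of the library). The scaling used the TMM factors of edgeR, which were 0.919 to 0.945 for shPHF19 and 1.06 to 1.08 for control libraries. PHF19 itself had 41.1, 36.9 and 33.0 CPM in shPHF19 libraries, against 168, 199 and 189 CPM in control libraries (log2 fold change -2.32, SE 0.0975, edgeR adjusted p = 3.55e-25). Of the myeloid blast markers, RUNX1T1, RUNX1, KIT, CD34, MPO, CD33 and PTPRC were detected in every library, whereas CD38 reached at most 0.389 CPM in shPHF19 and 0.354 CPM in control libraries. The summed marker level was 12963 to 13692 CPM in shPHF19 and 8330 to 8623 CPM in control libraries, with CD34 at 805 to 845 CPM in shPHF19 and 345 to 368 CPM in control libraries. Within that list PTPRC was lower, at 86.0 to 104 CPM in shPHF19 and 222 to 281 CPM in control libraries, as was RUNX1T1, at 140 to 152 CPM in shPHF19 and 176 to 197 CPM in control libraries. Summed erythroid and fibroblast markers each reached at most 2.34 CPM in shPHF19 and 2.15 CPM in control libraries. EPCAM, alone of the epithelial list, was present at 79.6 to 94.5 CPM in shPHF19 and 51.9 to 65.9 CPM in control libraries. Summed T cell markers, mostly CD3D, were at 48.9 to 52.8 CPM in shPHF19 and 34.6 to 40.7 CPM in control libraries, and B cell markers at 11.7 to 13.7 CPM in shPHF19 and 9.90 to 13.7 CPM in control libraries. The part of these differences in the synthetase results was not tested. In bulk RNA, a change in the share of cells of a given state and a change of RNA per cell cannot be told apart.

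All 38 genes passed the filter on low counts. At an adjusted p under 0.05 in the quasi-likelihood F test of edgeR, Benjamini-Hochberg adjusted over all 13014 genes tested, 11 of the 20 cytosolic genes fell in shPHF19 cells, 7 rose and 2 did not pass. Of the 16 mitochondrial genes, 11 rose, 1 fell and 4 did not pass, and neither scaffold passed. The background of calls was high: 60.2% of all genes tested were called, 29.4% as higher and 30.9% as lower. The median log2 fold change was -0.23 over the cytosolic genes and 0.55 over the mitochondrial genes, beside -0.03 over all genes tested. Scaling by library totals alone moved the all-gene median to -0.24 and the split of calls over all genes to 2590 higher and 5624 lower, against 3820 higher and 4015 lower with TMM factors. Upper-quartile scaling moved that median to -0.14. Relative to the all-gene median, the cytosolic median was -0.19 and the mitochondrial median between 0.58 and 0.59 under TMM, library totals, upper-quartile factors and the size factors of DESeq2. A change of scaling moves every gene by nearly the same amount, so this agreement holds by construction and tests nothing. The CPM of shPHF19 and control libraries did not overlap for 29 of the 38 genes, and for 63.5% of all genes tested.

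**Figure D1:**
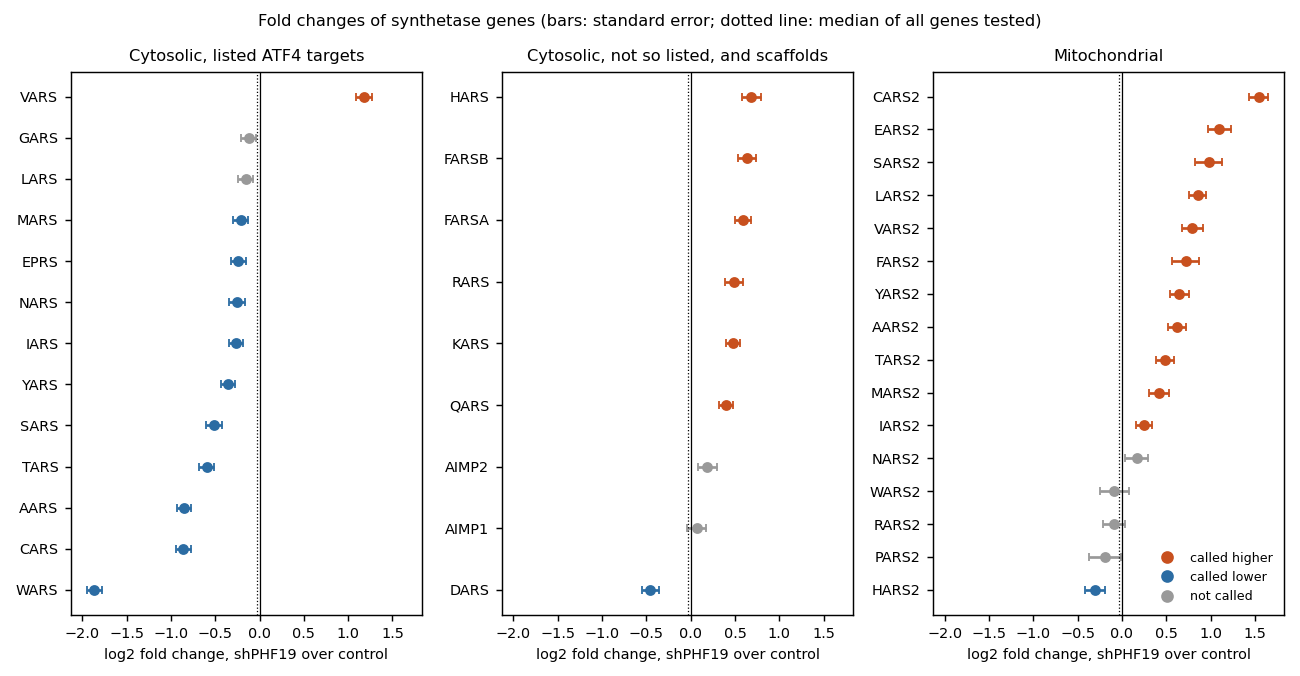
Log2 fold changes (x axis, shPHF19 over control) of the 38 genes, in panels for cytosolic genes listed as ATF4 targets, other cytosolic genes with the scaffolds, and mitochondrial genes. Points are edgeR estimates from 3 libraries a group, bars are standard errors, colours give the call, and the dotted line is the median of all genes tested (-0.03); 10 of 13 genes in the first panel lie to the left and were called lower, and 11 of 16 mitochondrial genes lie to the right and were called higher.

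Of the 11 cytosolic genes that fell, 10 are listed as ATF4 targets. Of 13 genes so listed, 10 fell, 1 rose (VARS) and 2 did not pass (GARS and LARS), with a median log2 fold change of -0.26. Of the 7 cytosolic genes not so listed, 6 rose and 1 fell (DARS), with a median of 0.49. This listing was compiled from general knowledge with earlier results of these data known, so it gives no independent evidence of direction. Rises and falls were found on each side of this division and of other divisions of the same 20 genes. Of the 8 enzymes of the multisynthetase complex, a particle of cytosolic synthetases built on the scaffolds, 3 rose and 4 fell, and of the 12 free enzymes or subunits 4 rose and 7 fell. Of the 10 cytosolic genes for class I enzymes, which share a Rossmann-fold catalytic domain, 3 rose and 6 fell, and of the 10 for class II enzymes, built on an antiparallel sheet, 4 rose and 5 fell. Beside all of these counts, 29.4% of all genes tested were called higher and 30.9% lower.

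ATF4 acts with C/EBP-family partners at composite sites known as C/EBP-ATF response elements, so the letters of the core TGATGNAA were looked for on both strands, from 250 bases before to 50 bases after each start in the RefSeq promoter table (GRCh38.p14). The table held 32 of the 38 genes, all but DARS, LARS, VARS, YARS, AARS2 and VARS2. The core was present for 6 of the 9 cytosolic genes that fell and had an entry (AARS, CARS, IARS, MARS, NARS and TARS, not EPRS, SARS or WARS), for GARS, which did not pass, and for 0 of 6 cytosolic genes that rose. It was present for 1 of 14 mitochondrial genes (YARS2), and for 4.46% of the 27305 genes in the table (1217 genes). The 6 genes that fell are shown because all hold the same letters, TGATGCAA or its reverse complement TTGCATCA. That exact form, which was singled out after the matches had been read, occurred in 295 genes of the table (1.08%) and in no other member. Each stretch is written 5′ to 3′ on its gene's strand, with the core in capitals.
AARS: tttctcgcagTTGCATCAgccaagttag
CARS: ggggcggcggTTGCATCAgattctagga
IARS: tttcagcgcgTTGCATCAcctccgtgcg
MARS: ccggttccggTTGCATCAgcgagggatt
NARS: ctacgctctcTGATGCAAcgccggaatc
TARS: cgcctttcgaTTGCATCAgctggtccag
GARS: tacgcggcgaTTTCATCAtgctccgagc
YARS2: tccacactgcTGATGGAAaaattaagtt
These lie at chr16:70289676-70289703 (AARS, minus strand), chr11:3057408-3057435 (CARS, minus), chr9:92293693-92293720 (IARS, minus), chr12:57488054-57488081 (MARS, plus), chr18:57621805-57621832 (NARS, minus), chr5:33440957-33440984 (TARS, plus), chr7:30594835-30594862 (GARS, plus) and chr12:32756077-32756104 (YARS2, minus). None of these 8 cores overlapped an E-box or an ETS core, the other motifs searched. In CARS, IARS, MARS, NARS and TARS the core began within 14 bases of an annotated start, whereas in AARS it lay 187 bases and in YARS2 197 bases before the start. CARS, TARS and GARS each have 2 annotated starts, and the window of only 1 of them held the core. A match of letters is a description and not a binding site, and its absence says only that these letters are not in the window.

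Among the cytosolic genes that fell, WARS fell most. WARS, the tryptophanyl enzyme, which interferon-gamma is known to induce, had 97.9, 98.6 and 94.8 CPM in shPHF19 libraries, against 331, 358 and 370 CPM in control libraries. It was 3.64-fold lower in shPHF19 cells (log2 fold change -1.86, SE 0.0848, edgeR adjusted p = 9.00e-24), with all 3 shPHF19 libraries far below every control library, and its fold change stood at percentile 3.50 of all genes tested. The gene spans chr14:100333788-100376805 on the minus strand (GENCODE 29, GRCh38), and no C/EBP-ATF core lay in its promoter windows.

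AARS, CARS and TARS, which hold the exact core, came next. AARS, the alanyl enzyme, had 352, 322 and 320 CPM in shPHF19 libraries, against 571, 621 and 598 CPM in control libraries (log2 fold change -0.85, SE 0.0806, edgeR adjusted p = 9.57e-13). CARS, the cysteinyl enzyme, had 92.1, 94.5 and 98.2 CPM in shPHF19 libraries, against 173, 178 and 168 CPM in control libraries (log2 fold change -0.86, SE 0.0847, edgeR adjusted p = 2.59e-12). AARS was 1.80-fold and CARS 1.82-fold lower in shPHF19 cells, with libraries of a group close together. TARS, the threonyl enzyme, had 352, 399 and 422 CPM in shPHF19 libraries, against 667, 553 and 554 CPM in control libraries (log2 fold change -0.60, SE 0.0859, edgeR adjusted p = 5.85e-08). Its libraries were more scattered, with control replicate 1 the highest, and its groups still did not overlap.

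SARS and YARS, listed ATF4 targets without a core in the window or without an entry, fell by smaller amounts. SARS, the seryl enzyme, which also loads the transfer RNA for selenocysteine, had 168, 164 and 136 CPM in shPHF19 libraries, against 217, 236 and 217 CPM in control libraries (log2 fold change -0.51, SE 0.0866, edgeR adjusted p = 1.47e-06). YARS, the tyrosyl enzyme, had 341, 300 and 307 CPM in shPHF19 libraries, against 394, 423 and 398 CPM in control libraries (log2 fold change -0.36, SE 0.0813, edgeR adjusted p = 1.94e-04). The groups did not overlap for either gene. DARS, the aspartyl enzyme and the sole faller not listed as an ATF4 target, averaged 105 ± 10.8 CPM in shPHF19 and 144 ± 18.3 CPM in control libraries (SD, n = 3 each; log2 fold change -0.46, SE 0.0929, edgeR adjusted p = 3.95e-05).

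The remaining 4 fallers were 1.16 to 1.20 times lower in shPHF19 cells. IARS, the isoleucyl enzyme, had 397, 434 and 441 CPM in shPHF19 libraries, against 527, 497 and 502 CPM in control libraries (log2 fold change -0.26, SE 0.0799, edgeR adjusted p = 0.00431). EPRS had 148, 157 and 165 CPM in shPHF19 libraries, against 203, 175 and 176 CPM in control libraries (log2 fold change -0.24, SE 0.0851, edgeR adjusted p = 0.0138). MARS, the methionyl enzyme, had 333, 305 and 285 CPM in shPHF19 libraries, against 332, 372 and 366 CPM in control libraries (log2 fold change -0.21, SE 0.0827, edgeR adjusted p = 0.0231). The MARS groups overlapped by a single library each, while those of IARS and EPRS did not overlap. NARS, the asparaginyl enzyme, averaged 182 ± 17.7 CPM in shPHF19 and 217 ± 15.4 CPM in control libraries (SD, n = 3 each; log2 fold change -0.25, SE 0.0859, edgeR adjusted p = 0.00966). Of these, IARS kept its call whichever library was left out (edgeR adjusted p at most 0.0238). EPRS lost it without shPHF19 replicate 2 (edgeR adjusted p = 0.0625) and without control replicate 1 (0.109). NARS lost it without shPHF19 replicate 1 (0.0724) and without control replicate 1 (0.0571). MARS lost it without shPHF19 replicate 2 (0.105) or 3 (0.135), without control replicate 2 (0.108) or 3 (0.0879), and with no filter on low counts (0.0544). Over all alternatives the adjusted p ranged from 2.92e-05 to 0.109 for EPRS, from 2.58e-05 to 0.0724 for NARS and from 2.73e-05 to 0.135 for MARS. On the opposite strand, exons of MARS share 519 bases with ARHGAP9 and 355 bases with DDIT3. DDIT3 had 18.6, 15.2 and 17.8 CPM in shPHF19 libraries, against 119, 107 and 103 CPM in control libraries. The labels do not say whether counting used strand, and the part of these overlaps in the MARS counts was not tested.

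**Figure D2:**
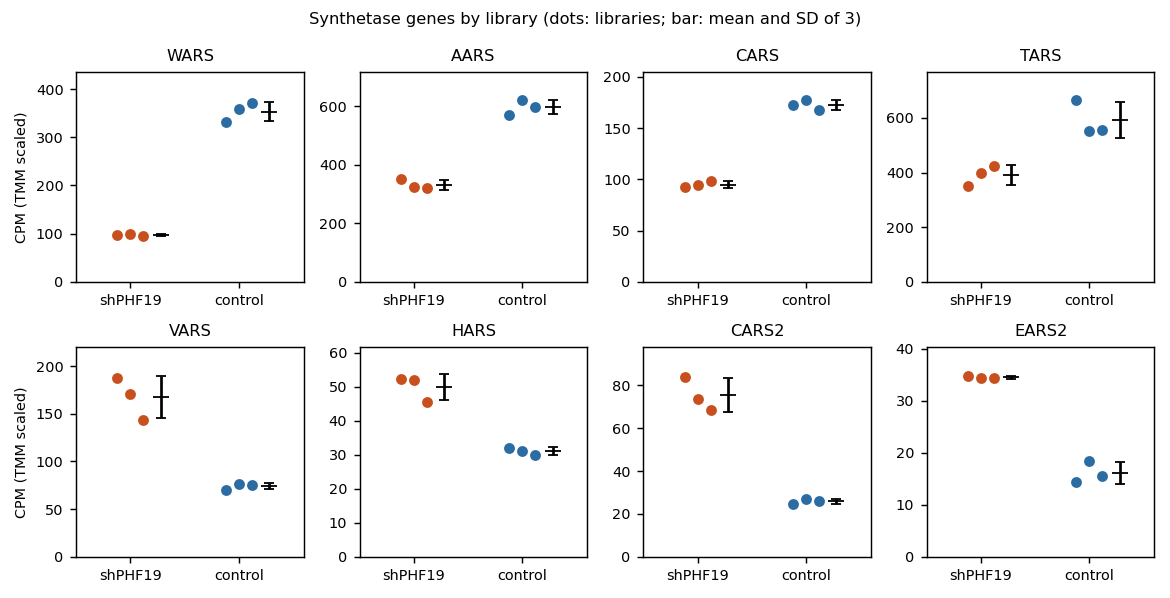
CPM (y axis, from 0, scaled by TMM factors) of 8 synthetase genes in each shPHF19 library (orange) and each control library (blue), with the mean and SD of 3 beside each group. WARS, AARS, CARS and TARS lie lower in all 3 shPHF19 libraries than in any control library, for WARS at 94.8 to 98.6 against 331 to 370 CPM, and VARS, HARS, CARS2 and EARS2 lie higher.

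Of the 7 cytosolic genes that rose, VARS rose most. VARS, the valyl enzyme, had 188, 171 and 144 CPM in shPHF19 libraries, against 70.5, 76.3 and 75.0 CPM in control libraries. It was 2.27-fold higher in shPHF19 cells (log2 fold change 1.18, SE 0.0926, edgeR adjusted p = 2.21e-15), at percentile 96.4 of all genes tested, and its lowest shPHF19 library stood well above the highest control library. VARS lies at chr6:31777518-31795953 on the minus strand (GENCODE 29, GRCh38) and is the only listed ATF4 target among the 13 that rose.

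HARS, the histidyl enzyme, had 52.3, 52.0 and 45.6 CPM in shPHF19 libraries, against 32.2, 31.2 and 30.0 CPM in control libraries (log2 fold change 0.68, SE 0.108, edgeR adjusted p = 4.56e-07). Both subunits of the phenylalanyl enzyme rose by like amounts. FARSB, its beta subunit, had 54.6, 59.9 and 62.4 CPM in shPHF19 libraries, against 40.2, 36.3 and 37.3 CPM in control libraries (log2 fold change 0.64, SE 0.104, edgeR adjusted p = 7.93e-07). FARSA, its alpha subunit, had 293, 260 and 229 CPM in shPHF19 libraries, against 158, 186 and 174 CPM in control libraries (log2 fold change 0.59, SE 0.0883, edgeR adjusted p = 1.30e-07). The groups did not overlap for any of these 3 genes. KARS, the lysyl enzyme of both compartments, had 246, 258 and 249 CPM in shPHF19 libraries, against 181, 187 and 172 CPM in control libraries (log2 fold change 0.48, SE 0.0814, edgeR adjusted p = 1.78e-06). RARS and QARS, the arginyl and glutaminyl enzymes, which neighbour each other in the multisynthetase complex, completed the group. RARS averaged 75.8 ± 5.07 CPM in shPHF19 and 54.1 ± 4.56 CPM in control libraries (SD, n = 3 each; log2 fold change 0.49, edgeR adjusted p = 3.29e-05). QARS averaged 315 ± 28.1 CPM in shPHF19 and 239 ± 5.99 CPM in control libraries (SD, n = 3 each; log2 fold change 0.40, edgeR adjusted p = 5.47e-05). All 7 kept their call and direction under every other scaling, tool, filter, block and set of libraries run; with a 1.5-fold change also required, VARS, HARS, FARSB and FARSA passed.

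LARS and GARS did not pass. LARS, the leucyl enzyme, which also senses leucine for the growth kinase mTORC1, had 211, 226 and 239 CPM in shPHF19 libraries, against 272, 230 and 250 CPM in control libraries (log2 fold change -0.15, SE 0.0840, edgeR adjusted p = 0.108). GARS, the glycyl enzyme of both compartments, had 289, 287 and 292 CPM in shPHF19 libraries, against 337, 316 and 293 CPM in control libraries (log2 fold change -0.12, SE 0.0811, edgeR adjusted p = 0.185). The LARS groups overlapped, and the GARS groups nearly met at 292 CPM in shPHF19 replicate 3 and 293 CPM in control replicate 3. Both were called lower with scaling by library totals alone (edgeR adjusted p = 3.70e-04 for LARS and 4.62e-04 for GARS) and with upper-quartile scaling (0.00716 and 0.0138), the settings that lowered the median of all genes. Over all alternatives the adjusted p ranged from 3.70e-04 to 0.386 for LARS and from 4.62e-04 to 0.480 for GARS. The 2 genes that serve both compartments thus differed in their calls, a difference that was itself not tested.

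Among the mitochondrial genes CARS2 changed most. CARS2, the cysteinyl enzyme, which also makes persulfides, had 84.0, 73.8 and 68.3 CPM in shPHF19 libraries, against 24.5, 26.9 and 26.0 CPM in control libraries. It was 2.92-fold higher in shPHF19 cells (log2 fold change 1.55, SE 0.107, edgeR adjusted p = 3.53e-17), at percentile 98.9 of all genes tested, and no shPHF19 library came near the control range. CARS2 spans chr13:110641412-110713603 on the minus strand (GENCODE 29, GRCh38). EARS2, the glutamyl enzyme, had 34.8, 34.3 and 34.4 CPM in shPHF19 libraries, against 14.3, 18.3 and 15.6 CPM in control libraries (log2 fold change 1.10, SE 0.128, edgeR adjusted p = 2.97e-10). LARS2, the leucyl enzyme, had 82.0, 75.9 and 76.5 CPM in shPHF19 libraries, against 41.6, 45.7 and 42.4 CPM in control libraries (log2 fold change 0.85, SE 0.0981, edgeR adjusted p = 2.37e-10). VARS2, the valyl enzyme, had 50.6, 50.2 and 38.4 CPM in shPHF19 libraries, against 25.7, 28.2 and 26.4 CPM in control libraries (log2 fold change 0.79, SE 0.117, edgeR adjusted p = 9.67e-08). The groups of these genes did not overlap, and shPHF19 replicate 3 was the lowest of its group for VARS2 by a wide step. Exons of VARS2 share 22.0% of their length with GTF2H4 on the same strand, whose part in the VARS2 counts was not tested. Those of EARS2 share 6.46% with UBFD1 on the opposite strand, whose part in the EARS2 counts was likewise not tested.

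The 6 mitochondrial genes described next, which followed in order of adjusted p and not of size, rose by 1.33 to 1.98 times. SARS2, the seryl enzyme, had 25.8, 19.0 and 21.8 CPM in shPHF19 libraries, against 11.7, 12.1 and 9.79 CPM in control libraries (log2 fold change 0.98, SE 0.150, edgeR adjusted p = 2.41e-07). A readthrough gene annotated on the same strand covers 46.2% of its exon length, and MRPS12 on the opposite strand 10.8%. The part of both in the SARS2 counts was not tested. AARS2, the alanyl enzyme, had 63.9, 60.9 and 62.6 CPM in shPHF19 libraries, against 37.6, 44.4 and 39.5 CPM in control libraries (log2 fold change 0.62, SE 0.102, edgeR adjusted p = 9.22e-07). YARS2, the tyrosyl enzyme, had 47.7, 48.3 and 48.9 CPM in shPHF19 libraries, against 33.5, 29.3 and 29.8 CPM in control libraries (log2 fold change 0.65, SE 0.108, edgeR adjusted p = 1.41e-06). All shPHF19 libraries stood above all control libraries for these 3 genes. TARS2, the threonyl enzyme, had 58.9, 57.1 and 55.1 CPM in shPHF19 libraries, against 40.3, 40.7 and 41.7 CPM in control libraries (log2 fold change 0.48, SE 0.102, edgeR adjusted p = 6.64e-05). FARS2, the phenylalanyl enzyme, which works as a monomer in mitochondria, averaged 18.1 ± 0.853 CPM in shPHF19 and 11.0 ± 1.37 CPM in control libraries (SD, n = 3 each; log2 fold change 0.72, edgeR adjusted p = 6.66e-05). MARS2, the methionyl enzyme, had 41.9, 43.5 and 39.4 CPM in shPHF19 libraries, against 34.7, 30.8 and 28.1 CPM in control libraries (log2 fold change 0.42, SE 0.113, edgeR adjusted p = 0.00137). TARS2, FARS2 and MARS2 were likewise higher in every shPHF19 library than in any control library, though MARS2 did not pass with scaling by library totals alone (edgeR adjusted p = 0.0992, range over all alternatives 3.60e-04 to 0.0992).

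IARS2 was called at the smallest fold change of the mitochondrial genes that rose. IARS2, the isoleucyl enzyme, had 111, 118 and 133 CPM in shPHF19 libraries, against 111, 97.7 and 97.4 CPM in control libraries (log2 fold change 0.24, SE 0.0901, edgeR adjusted p = 0.0178). Its groups met at 111 CPM. The call was lost without shPHF19 replicate 3 (edgeR adjusted p = 0.124), without control replicate 2 (0.0521) or 3 (0.0837), with scaling by library totals alone (0.727) and by upper-quartile factors (0.172). Over all alternatives its adjusted p ranged from 0.00242 to 0.727.

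HARS2 was the mitochondrial gene that fell. HARS2, the histidyl enzyme, had 28.7, 34.2 and 28.4 CPM in shPHF19 libraries, against 37.9, 36.7 and 38.3 CPM in control libraries (log2 fold change -0.31, SE 0.114, edgeR adjusted p = 0.0189). The groups did not overlap, with shPHF19 replicate 2 nearest to the control range. The call was lost without shPHF19 replicate 1 (edgeR adjusted p = 0.0664) or 3 (0.0837) and without control replicate 3 (0.0619), and its adjusted p ranged from 2.15e-04 to 0.0837 over all alternatives. HARS2 and HARS are head-to-head neighbours that moved in opposite directions. HARS2 lies at chr5:140691426-140699318 on the plus strand and HARS at chr5:140673904-140691862 on the minus strand (GENCODE 29, GRCh38), and their exons share 437 bases, 11.7% of the HARS2 exon length. Their RefSeq starts lie 85 bases apart, so both genes begin at the edges of the stretch chr5:140691371-140691454 (GRCh38.p14). It is shown on the plus strand because a common stretch precedes genes with opposite calls, with the ETS core CCGGAA or its reverse complement TTCCGG in capitals, found 3 times.
HARS and HARS2: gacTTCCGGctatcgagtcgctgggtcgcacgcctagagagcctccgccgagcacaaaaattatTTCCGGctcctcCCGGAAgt
ETS cores were present for 12 of 16 cytosolic and 8 of 14 mitochondrial genes with an entry, beside 20.1% of all genes in the promoter table. The E-box CACGTG, the letters that MYC and its relatives read, was present for CARS2, EARS2 and MARS2 among 9 mitochondrial genes that rose and had an entry, beside 8.77% of all genes. Those 3 are shown with the E-box in capitals.
CARS2: ctgggatgcaCACGTGcttcgctaac
EARS2: gggagaagccCACGTGtgctattcca
MARS2: gcgcctctcaCACGTGctgtcagaac
These stretches lie at chr13:110706503-110706528 (CARS2, minus strand), chr16:23557350-23557375 (EARS2, minus) and chr2:197705348-197705373 (MARS2, plus). CARS2 has 2 annotated starts, and the window of only 1 of them held the E-box. Among the other members, IARS and AIMP2 held an E-box, in AIMP2 for 1 of 2 annotated starts.

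In the 4 mitochondrial genes that did not pass, libraries of the groups overlapped. NARS2, the asparaginyl enzyme, had 24.5, 27.2 and 27.4 CPM in shPHF19 libraries, against 26.6, 21.9 and 22.0 CPM in control libraries (log2 fold change 0.16, and -0.04 with scaling by library totals alone; edgeR adjusted p = 0.262). RARS2, the arginyl enzyme, had 23.2, 20.6 and 26.4 CPM in shPHF19 libraries, against 25.5, 26.2 and 23.0 CPM in control libraries (log2 fold change -0.09, edgeR adjusted p = 0.563). WARS2, the tryptophanyl enzyme, had 10.8, 15.1 and 13.9 CPM in shPHF19 libraries, against 15, 11.4 and 15.9 CPM in control libraries (log2 fold change -0.08, edgeR adjusted p = 0.669). No group of libraries was set apart for any of these. PARS2, the prolyl enzyme, had 10.7, 9.01 and 7.02 CPM in shPHF19 libraries, against 9.65, 12.0 and 8.82 CPM in control libraries (log2 fold change -0.19, edgeR adjusted p = 0.362). RARS2 was called lower with scaling by library totals alone (edgeR adjusted p = 0.0458, range over all alternatives 0.0458 to 0.996).

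AIMP1 and AIMP2, scaffolds of the multisynthetase complex, were not called. AIMP1 had 43.2, 43.4 and 53.1 CPM in shPHF19 libraries, against 49.4, 44.0 and 40.1 CPM in control libraries (log2 fold change 0.07 with TMM, -0.14 with library totals and -0.04 with upper-quartile scaling; edgeR adjusted p = 0.624). AIMP2 had 43.4, 45.5 and 38.8 CPM in shPHF19 libraries, against 39.8, 33.6 and 38.6 CPM in control libraries (log2 fold change 0.19 with TMM and -0.02 with library totals; edgeR adjusted p = 0.136). Their groups overlapped. Exons of AIMP2 share 28.9% of their length with EIF2AK1 on the opposite strand, and EIF2AK1 averaged 282 ± 1.86 CPM in shPHF19 and 159 ± 3.92 CPM in control libraries (SD, n = 3 each), so without strand-aware counting the AIMP2 counts would be uncertain. EEF1E1, the third scaffold, also called AIMP3, fell, averaging 10.3 ± 1.78 CPM in shPHF19 and 17.2 ± 2.27 CPM in control libraries (SD, n = 3 each; log2 fold change -0.74, edgeR adjusted p = 9.60e-05).

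Comparing the cytosolic and mitochondrial genes for the same amino acid within each library gave ratios that do not depend on scaling. Of 17 pairs, the ratio of cytosolic to mitochondrial counts was lower in all 3 shPHF19 libraries than in any control library for 11, higher for 3 and overlapping for 3. The share for ratios of other gene pairs was not computed. For single genes, the groups did not overlap in CPM for 63.5% of all genes tested. Pairs that share EPRS or FARS2 are not independent of each other. With 3 libraries against 3 an exact two-sided permutation test over samples cannot go below p = 0.1, which 14 pairs reached (0.121 after Benjamini-Hochberg adjustment over the 17 pairs), so no pair could pass. The median difference of log2 ratios, shPHF19 minus control, was -0.64, ranging from -2.41 for cysteine to 0.99 for histidine. In 9 pairs the edgeR calls of the 2 genes were opposite. In 8 of these the cytosolic gene fell and the mitochondrial gene rose (CARS, SARS, AARS, EPRS with EARS2, TARS, YARS, MARS and IARS with their partners), and in HARS and HARS2 the reverse was found.

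Levels of the paired genes were compared per kilobase of exon. CARS over CARS2 was 1.14, 1.33 and 1.5 in shPHF19 libraries, against 7.35, 6.88 and 6.73 in control libraries. AARS over AARS2 was 5.25, 5.05 and 4.88 in shPHF19 libraries, against 14.5, 13.3 and 14.5 in control libraries. SARS over SARS2 was 5.50, 7.29 and 5.27 in shPHF19 libraries, against 15.5, 16.4 and 18.7 in control libraries. In these 3 pairs the cytosolic gene fell and the mitochondrial gene rose, whereas for tryptophan WARS fell and WARS2 was not called. WARS over WARS2 was 5.50, 3.95 and 4.12 in shPHF19 libraries, against 13.4, 18.9 and 14.1 in control libraries. The histidine pair ran the other way and was the pair in which the mitochondrial gene had the higher level per kilobase, its ratio being 0.869, 0.723 and 0.766 in shPHF19 libraries, against 0.403, 0.405 and 0.373 in control libraries. VARS over VARS2 was 5.03 ± 0.259 in shPHF19 and 3.84 ± 0.101 in control libraries (SD, n = 3 each), and both genes rose. RARS over RARS2 was 2.43 ± 0.362 in shPHF19 and 1.62 ± 0.141 in control libraries (SD, n = 3 each). For phenylalanine the ratios overlapped, and FARSA, FARSB and FARS2 all rose. For EPRS over PARS2 they overlapped at 7.86 ± 2.08 in shPHF19 and 7.98 ± 1.5 in control libraries (SD, n = 3 each).

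**Figure D3:**
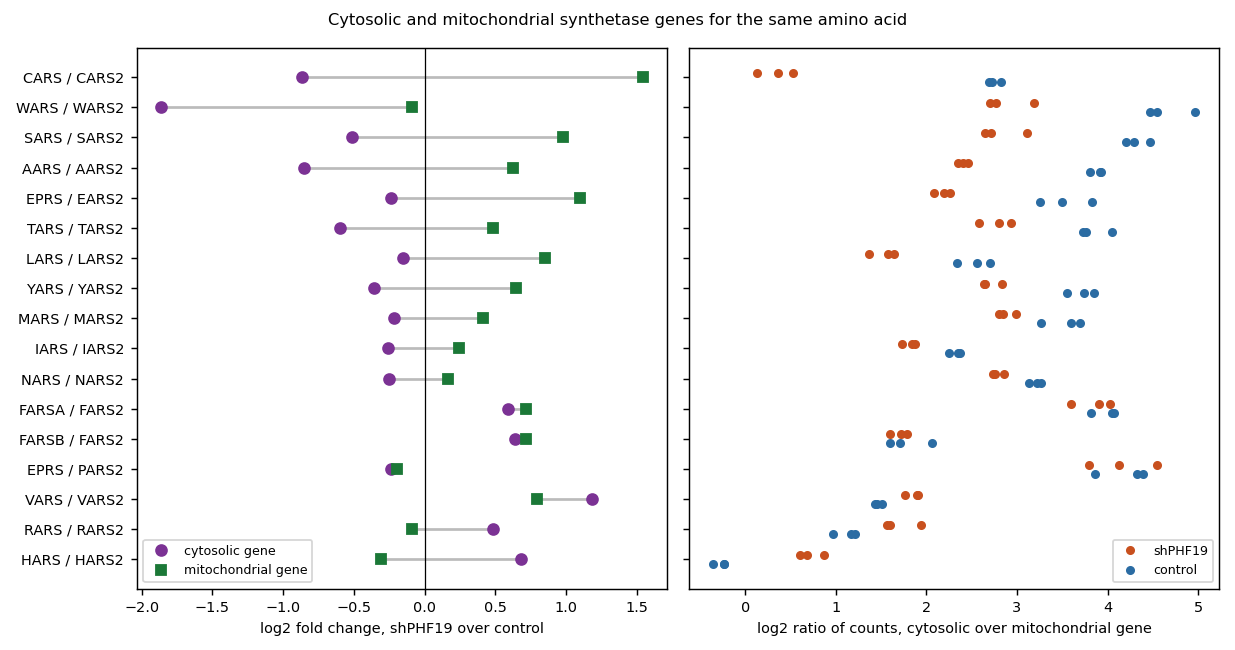
For each of 17 pairs of cytosolic and mitochondrial genes for the same amino acid, the left panel gives the edgeR log2 fold change of each gene (shPHF19 over control) and the right panel the log2 ratio of cytosolic to mitochondrial counts in each library, shPHF19 in orange above control in blue. In 11 pairs all shPHF19 ratios lie left of all control ratios, by up to -2.41 for CARS and CARS2, and in VARS, RARS and HARS they lie to the right.

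Summed over genes, the cytosolic set took a smaller share of all counts in shPHF19 libraries and the mitochondrial set a larger one. The 20 cytosolic genes took 0.396 ± 0.00229% of counts in shPHF19 and 0.548 ± 0.00807% in control libraries (SD, n = 3 each). The 13 listed ATF4 targets took 0.292 ± 0.00450% in shPHF19 and 0.456 ± 0.00711% in control libraries, and the 7 others 0.104 ± 0.00232% in shPHF19 and 0.0922 ± 0.00139% in control libraries. The 16 mitochondrial genes took 0.0658 ± 0.000351% in shPHF19 and 0.0525 ± 0.000895% in control libraries. None of these 4 shares overlapped between groups. The shares do not use the TMM factors, and with them the cytosolic falls were smaller. Mean sums in scaled CPM were 4256 in shPHF19 and 5108 in control libraries for the 20 cytosolic genes. For the 13 listed targets they were 3139 in shPHF19 and 4249 in control libraries, and for the 7 others 1117 and 860. The 16 mitochondrial genes summed to 707 in shPHF19 and 490 in control libraries. The ratio of the cytosolic to the mitochondrial sum in CPM was 5.99, 6.04 and 6.02 in shPHF19 libraries, against 10.4, 10.4 and 10.5 in control libraries, and per kilobase of exon it was 5.10 ± 0.0885 in shPHF19 and 7.84 ± 0.119 in control libraries (SD, n = 3 each). The libraries of a group lay close together in this ratio.

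**Figure D4:**
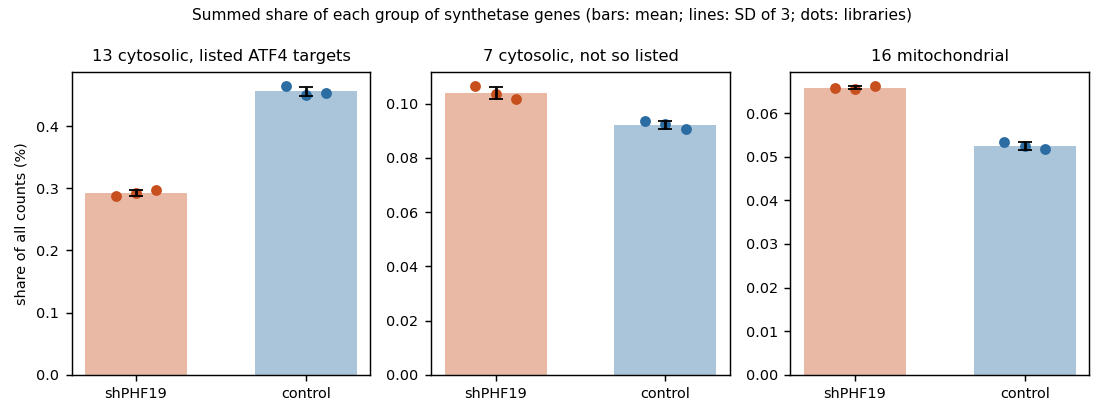
Share of all counts (y axis in percent, from 0, scales differ between panels) of 13 cytosolic genes listed as ATF4 targets, 7 cytosolic genes not so listed, and 16 mitochondrial genes. Shares use library totals without TMM factors. Bars are means, lines SD of 3 libraries and dots libraries, shPHF19 in orange and control in blue; the first share is 0.292% in shPHF19 and 0.456% in control libraries, and the other panels are higher in shPHF19.

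Levels per kilobase placed the cytosolic set above the mitochondrial set in both groups. The median over cytosolic genes was 39.6 CPM per kb in shPHF19 and 50.0 CPM per kb in control libraries, and over mitochondrial genes 8.25 CPM per kb in shPHF19 and 6.90 CPM per kb in control libraries. FARSA had the highest level per kilobase in shPHF19 cells, at 107 CPM per kb, against 71.0 in control cells, whereas AARS led in control cells, with 73.6 CPM per kb in shPHF19 and 133 in control cells. WARS had 15.3 CPM per kb in shPHF19 and 55.6 in control cells. HARS was the least abundant cytosolic gene per kilobase in both groups, at 6.36 CPM per kb in shPHF19 and 3.96 in control cells. IARS2 led the mitochondrial genes in both groups, at 28.96 CPM per kb in shPHF19 and 24.5 in control cells. These lengths are those of all annotated exons merged per gene, so genes with many long untranslated or alternative exons appear lower.

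**Figure D5:**
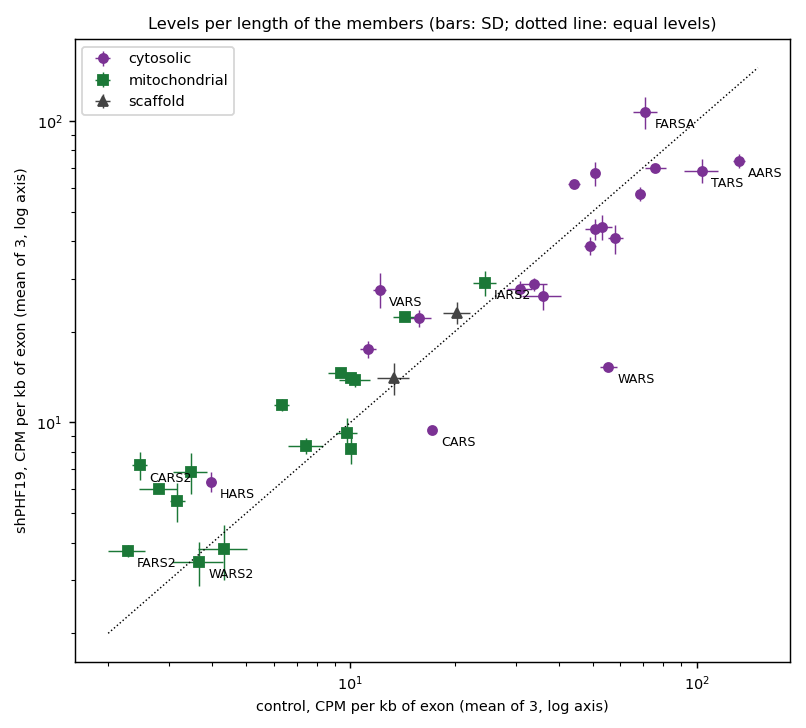
Mean level in shPHF19 libraries (y axis) against mean level in control libraries (x axis), both in CPM per kb of merged exon on log axes, for 20 cytosolic genes (circles), 16 mitochondrial genes (squares) and 2 scaffolds (triangles); bars are SD of 3 libraries. Points under the dotted line of equal levels are lower in shPHF19, such as WARS at 15.3 against 55.6 CPM per kb, and most squares lie above it, such as CARS2 at 7.21 against 2.47 CPM per kb.

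Of 34 ATF4 targets outside the synthetases that were tested, among 35 listed, 26 fell, 2 rose (ALDH18A1, of proline synthesis, and SHMT2, of mitochondrial serine breakdown) and 6 did not pass, with a median log2 fold change of -1.08. Over all genes tested, 30.9% were called lower and 29.4% higher. This list overlaps genes already known to fall in these libraries and is no independent support. By smallest adjusted p the leading members were DDIT4, an inhibitor of mTORC1 signalling (log2 fold change -4.40), TRIB3, a pseudokinase that restrains ATF4 (-2.69), DDIT3, the stress transcription factor CHOP (-2.68), and SLC7A11, the cystine transporter (-2.73). SLC7A11 averaged 9.39 ± 0.461 CPM in shPHF19 and 62.5 ± 9.27 CPM in control libraries (SD, n = 3 each). ATF4 mRNA itself had 567, 603 and 582 CPM in shPHF19 libraries, against 711, 784 and 707 CPM in control libraries (log2 fold change -0.33, SE 0.0793, edgeR adjusted p = 3.68e-04). ATF4 is controlled mainly at translation, which these counts do not measure.

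Of 16 genes for the kinases and core of the integrated stress response, 8 rose, 4 fell and 4 did not pass, with a median log2 fold change of 0.23. The shares over all genes tested were 29.4% higher and 30.9% lower. PPP1R15A, which directs the phosphatase that ends the response, fell (log2 fold change -2.40), as did PPP1R15B, EIF2B4 and ATF4. EIF2B5, a subunit of the exchange factor that phosphorylated eIF2 blocks (0.96), EIF2AK1, the haem-regulated kinase (0.83), and GCN1, the activator of GCN2 (0.72), rose. EIF2AK4, or GCN2, averaged 68.4 ± 0.690 CPM in shPHF19 and 50.0 ± 1.95 CPM in control libraries (SD, n = 3 each; log2 fold change 0.45, edgeR adjusted p = 8.47e-05).

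Of 13 tested among 14 partners of charging, 6 rose, 4 fell and 3 did not pass, beside 29.4% higher and 30.9% lower of all genes tested. SEPSECS, which makes selenocysteine on the serine that SARS loads, fell to 16.8, 18.5 and 19.3 CPM in shPHF19 libraries, against 71.1, 52.5 and 60.9 CPM in control libraries (log2 fold change -1.75, edgeR adjusted p = 1.72e-17). XPOT, the exporter of transfer RNA from the nucleus and also a listed ATF4 target, fell (log2 fold change -0.89). DTD1, which removes D-amino acids from transfer RNA, rose (0.52). Of the amidotransferase that completes the product of EARS2, GATB (0.48) and GATC (0.21) rose and QRSL1 (-0.37) fell.

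Of 47 tested among 48 genes for transfer RNA processing and modification, 26 rose, 6 fell and 15 did not pass, with a median log2 fold change of 0.43. Among all genes tested, 29.4% rose and 30.9% fell. The leading members were POP7 (log2 fold change 1.44) and POP1 (1.67), subunits of ribonuclease P, ELAC2 (1.03), which trims the 3′ end, and MTO1 (-1.08), which modifies mitochondrial transfer RNA. POP1 averaged 29.3 ± 0.939 CPM in shPHF19 and 9.24 ± 0.941 CPM in control libraries (SD, n = 3 each).

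Of 17 genes for mitochondrial translation and transcription factors, 5 rose, 2 fell and 10 did not pass, with a median log2 fold change of 0.22. The share that rose was near that of all genes tested (29.4%), and the share called was below theirs (60.2%). TUFM, the elongation factor that carries charged transfer RNA to the mitochondrial ribosome, rose to 322, 268 and 251 CPM in shPHF19 libraries, against 159, 169 and 161 CPM in control libraries (log2 fold change 0.78, edgeR adjusted p = 1.11e-10). POLRMT, the mitochondrial RNA polymerase (0.71), and TSFM, the exchange factor of TUFM (0.70), rose, and MTIF2, an initiation factor, fell (-0.77). Of 6 genes around MYC (MYC, its partner MAX and known targets), 4 rose (ODC1 0.95, FBL 0.92, NCL 0.59 and MYC 0.35) and 2 did not pass, beside 29.4% of all genes called higher. MYC had 752, 766 and 734 CPM in shPHF19 libraries, against 572, 603 and 593 CPM in control libraries (edgeR adjusted p = 1.42e-04).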

How the data were processed

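RNA-seq counts per gene were deposited by the authors for 3 shPHF19 and 3 control libraries of Kasumi-1 cells, made from total RNA with a KAPA kit per the labels' protocols. HISAT2 2.1.0, HTSeq 0.11.2 and the build hg38 were used per the submitters' processing notes; the annotation and the strand setting are not stated there. No row was a total or unassigned class, and 28 gene names had been turned into dates. Counts were analysed as deposited.

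Genes were filtered with filterByExpr (13014 of 26410 kept; 6991 had no count), scaled by TMM and tested with the robust quasi-likelihood F test of edgeR 4.0.16 in R 4.3.3, with Benjamini-Hochberg adjustment over every gene tested and calls at 0.05. The biological coefficient of variation was 0.0915. On simulated data with 12848 genes run, the same steps recovered 85 of 100 genes changed 2-fold (log2 of 1) and 65 of 99 changed by 0.5 on the log2 scale, with 14 false calls among 164. The simulation changed a far smaller share of genes than the 60.2% called in the data. Its rates of recovery and false calls therefore do not describe the fit of the data. Chi-square statistics between replicates were 4.63 to 11.7 times their degrees of freedom, above sampling noise, and all 6 libraries were counted separately. That scatter may be technical and does not show that the replicates were separate cultures. Ratios of paired genes were tested by exact permutation. Exon lengths and positions are those of GENCODE 29 (GRCh38), which matched all 38 genes. Named pseudogenes exist for 12 of them and overlapping genes for more, and none of those pseudogenes is a row of the table, so counts of near-identical copies are uncertain. Promoter sequences are from RefSeq (GRCh38.p14).

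Members and lists were chosen with earlier results of these data known. Values per library are given for the 4 members with the smallest adjusted p in each direction of each compartment, members not called, GARS, KARS, the scaffolds, pairs that moved oppositely, PHF19 and ATF4, and up to 4 genes of each other list are named by smallest adjusted p; genes named beyond these were chosen after their values were seen, and some items are not reported here. Alternatives were RLE, upper-quartile and total scaling, DESeq2 1.42.0, other filters, a 1.5-fold requirement, a replicate block and leaving out each library. The authors' own table of comparisons was not used.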

Additional observations from a re-analysis of the deposited data

How the results depend on the processing

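Of 494 values of single genes under 13 alternatives, which leave out the 1.5-fold requirement, 460 kept their direction and side of the threshold. Of the others, 21 lost the call, 5 gained one and 8 turned direction. Direction and side were both kept under all 13 by 25 of the 38 genes. Library totals alone gave medians of -0.43 (cytosolic) and 0.35 (mitochondrial) with 2 mitochondrial genes lower, and upper-quartile factors -0.33 and 0.45, both relative to lower all-gene medians. Among genes not called, the log2 fold change turned to -0.0402 (NARS2), -0.139 (AIMP1) and -0.0183 (AIMP2) with library totals, and to -0.0365 (AIMP1) with upper-quartile factors. Requiring a 1.5-fold change as well left 8 cytosolic genes (4 higher, 4 lower) and 8 mitochondrial genes (8 higher, 0 lower). Among all genes tested it left 4569 (2057 higher, 2512 lower), and fewer genes meet a stricter rule by construction. Leaving out each library, mitochondrial genes called lower numbered 0 to 1, the cytosolic median ranged from -0.23 to -0.18, and the cytosolic minus mitochondrial difference of medians from -0.80 to -0.72; the cause of these shifts and of those with other scaling was not tested. Fold changes ranged from -0.181 to 0.00103 for RARS2, -0.203 to 0.0480 for WARS2 (0.0133 without control replicate 3) and -0.0342 to 0.147 for AIMP1, and differences of log2 ratios from -0.187 to 0.0465 for FARSB over FARS2 and -0.235 to 0.144 for EPRS over PARS2 (0.0633 and 0.0256 without control replicate 1 and 3). With the replicate block 16 cytosolic and 11 mitochondrial genes were called, EPRS (edgeR adjusted p = 0.0569), MARS (0.0763) and IARS2 (0.0582) falling out; same-numbered libraries did not deviate together (correlations -0.284, -0.0159 and -0.0725), so the numbers do not pair samples. PARS2 and WARS2, at 7.02 to 15.9 CPM, had the largest standard errors of the 38 genes (0.182 and 0.162).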
